A study of Mus musculus with 75 samples.

Results

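The genes Plau, Plat, Plaur, Serpine2, Serpinb2, F3, F13a1, Thbd and Procr encode proteins that activate plasminogen, inhibit that activation, form and cross-link fibrin, or restrain thrombin. They were taken from the deposited table of counts by gene symbol, 9 of its 55536 rows, and all 9 were among the 16221 genes that passed the filter on low counts. Levels were measured by polyA RNA sequencing of the inferior lung lobe in 75 male C57BL/6JRj mice. Bleomycin, a DNA-damaging drug that injures the lung epithelium, was instilled once into the trachea of the BLEO-IPF mice, and these mice were randomized only if they had lost 5 to 17% of body weight by day 6. The age given for every group is 12 to 14 weeks, which the study's methods state for the time of instillation. BLEO-IPF mice of later days were therefore older when sampled. There were 10 BLEO-IPF mice at day 7, 7 at day 42, and 12 at each of days 14, 21, 28 and 35. The 10 control mice (CTRL) are named as saline-treated in the sample labels and as untreated in the treatment protocol, and they formed a single group without time points of their own. The lobe holds every cell type of the lung, and according to the study's methods the lung was rinsed for lavage before it was excised. In bulk RNA of this kind, fewer cells of a type and less RNA per cell cannot be told apart.

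Plasminogen, made in the liver, is cut to the fibrin-degrading protease plasmin by urokinase (Plau), which acts mostly at cell surfaces on its receptor (Plaur), and by tissue plasminogen activator (Plat), which acts mostly on fibrin. Serpins hold these activators in check: protease nexin-1 (Serpine2) inhibits thrombin, urokinase and tissue plasminogen activator outside cells, and plasminogen activator inhibitor-2 (Serpinb2) inhibits urokinase and is kept largely within cells. Coagulation starts when tissue factor (F3) binds factor VII, and ends when the transglutaminase factor XIII, whose catalytic A subunit is F13a1, cross-links fibrin. On endothelium, thrombomodulin (Thbd) turns thrombin toward protein C, and the endothelial protein C receptor (Procr) presents protein C to that complex. In the lung these systems are known for fibrin deposition in injured alveoli and its removal during repair.

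In the mouse genome (GRCm38, Ensembl annotation) Plau lies at chr14:20836660-20843385 on the plus strand, Plat at chr8:22757727-22782844 (plus) and Plaur at chr7:24462484-24475968 (plus). Serpine2 lies at chr1:79794197-79861180 on the minus strand and Serpinb2 at chr1:107511423-107535478 (plus). F3 lies at chr3:121723537-121735048 (plus) and F13a1 at chr13:36867178-37050244 (minus). Thbd, a gene of 1 exon, lies at chr2:148404466-148408188 (minus), and Procr lies at chr2:155751117-155755471 (plus).

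Upstream sequences are shown because 4 members held the same short motif there. RefSeq promoter windows on GRCm38.p6 matched 6 of the 9 members, namely Plaur, Serpine2, Serpinb2, F3, F13a1 and Procr. The 250 bases before the RefSeq start were searched on both strands for TGANTCA (N is any base), for TATAAA, and for GGGCGG, the GC box. TGANTCA is a loose pattern that includes the binding motif of AP-1 (a dimer of Fos and Jun proteins). Its reverse complement is the same pattern. TGANTCA was present in 4 of the 6 members and in 6.75% of all 32841 windows of that length. All 6 members with a window rose on days 7 and 14, including Serpine2 and F13a1, which held no TGANTCA in their windows. The Serpine2 window, and that of the second F13a1 start, lay wholly inside the gene as annotated in Ensembl. Neither therefore covers bases before the annotated gene. Whether the motif bears on the levels was not tested. Capitals mark the motifs, and only bases before the first annotated base of the gene are printed, 5′ to 3′ on the strand of the gene.
Plaur, chr7:24462233-24462482, plus strand: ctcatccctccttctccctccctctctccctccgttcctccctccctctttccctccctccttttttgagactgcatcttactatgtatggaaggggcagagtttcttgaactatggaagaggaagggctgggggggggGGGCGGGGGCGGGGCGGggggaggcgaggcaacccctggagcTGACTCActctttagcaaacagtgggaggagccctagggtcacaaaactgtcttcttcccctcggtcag
Serpinb2, chr1:107511173-107511422, plus strand: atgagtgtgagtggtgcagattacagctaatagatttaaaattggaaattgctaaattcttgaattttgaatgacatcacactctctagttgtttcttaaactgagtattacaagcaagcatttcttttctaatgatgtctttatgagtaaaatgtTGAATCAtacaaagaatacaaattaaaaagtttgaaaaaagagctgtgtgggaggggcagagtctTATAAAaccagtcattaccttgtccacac
F3, chr3:121723287-121723536, plus strand: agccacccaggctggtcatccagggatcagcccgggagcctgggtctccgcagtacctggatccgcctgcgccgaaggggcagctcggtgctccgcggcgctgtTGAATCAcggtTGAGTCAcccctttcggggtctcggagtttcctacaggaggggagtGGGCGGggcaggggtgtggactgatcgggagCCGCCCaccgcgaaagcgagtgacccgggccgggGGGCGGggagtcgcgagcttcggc
Procr, chr2:155750967-155751116, plus strand: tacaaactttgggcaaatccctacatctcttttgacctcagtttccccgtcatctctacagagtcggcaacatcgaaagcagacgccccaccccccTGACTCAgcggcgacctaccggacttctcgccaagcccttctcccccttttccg
Counting back from the base just before the RefSeq start as -1, TGANTCA began at -69 in Plaur, at -94 in Serpinb2, at -154 in Procr, and at both -146 and -135 in F3. The letters found were TGACTCA in Plaur and Procr, TGAATCA in Serpinb2, and both TGAATCA and TGAGTCA in F3. GGGCGG, present in 32.7% of all windows, was also found in Plaur, F3 and Serpine2, where neighbouring matches overlapped, and the Serpine2 window was 78.8% G and C against a median of 52.4% over all windows. TATAAA, present in 12.4% of all windows, was found in Serpinb2 alone of the 6 members, beginning at -29. F13a1 held none of these letters in the windows of either of its annotated starts. A match is a stretch of letters only, and binding was not measured.

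Each library held between 9240291 and 14665247 counts, which sets the precision of low genes. Defining markers of endothelium, alveolar type 1 (AT1) and type 2 (AT2) cells, fibroblasts and macrophages had counts in every mouse, as a lung lobe should. Some libraries stood apart by markers of other tissues. Skeletal muscle markers summed to 1210 CPM (counts scaled to a common library size) in BLEO-IPF day 28 replicate 10, against 16.3 CPM in the next highest mouse of that day. Thymus markers summed to 25.99, 13.3 and 8.21 CPM in CTRL replicates 9, 5 and 8, and to 19.02 CPM in BLEO-IPF day 28 replicate 7, where the next mouse of that day had 3.49 CPM. BLEO-IPF day 14 replicate 8 held 529 CPM of neutrophil markers, against 157 CPM in the next highest mouse of that day.

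In CTRL lungs the members covered a wide range of abundance. Scaled by exon length, Thbd was the highest at 322 CPM per kilobase, followed by F3 at 28.8, Plaur at 17.0, Serpine2 at 16.9 and Plat at 11.8 CPM per kilobase. Plau, F13a1 and Procr followed at 4.59, 4.39 and 1.94 CPM per kilobase. Serpinb2 was close to the limit of detection at 0.161 CPM per kilobase, with 2 to 6 counts in each CTRL mouse. On days 7 and 14 the mean of 8 members lay above that of CTRL and the mean of Thbd below it, as the plot of CPM by group shows.

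**Figure D1:**
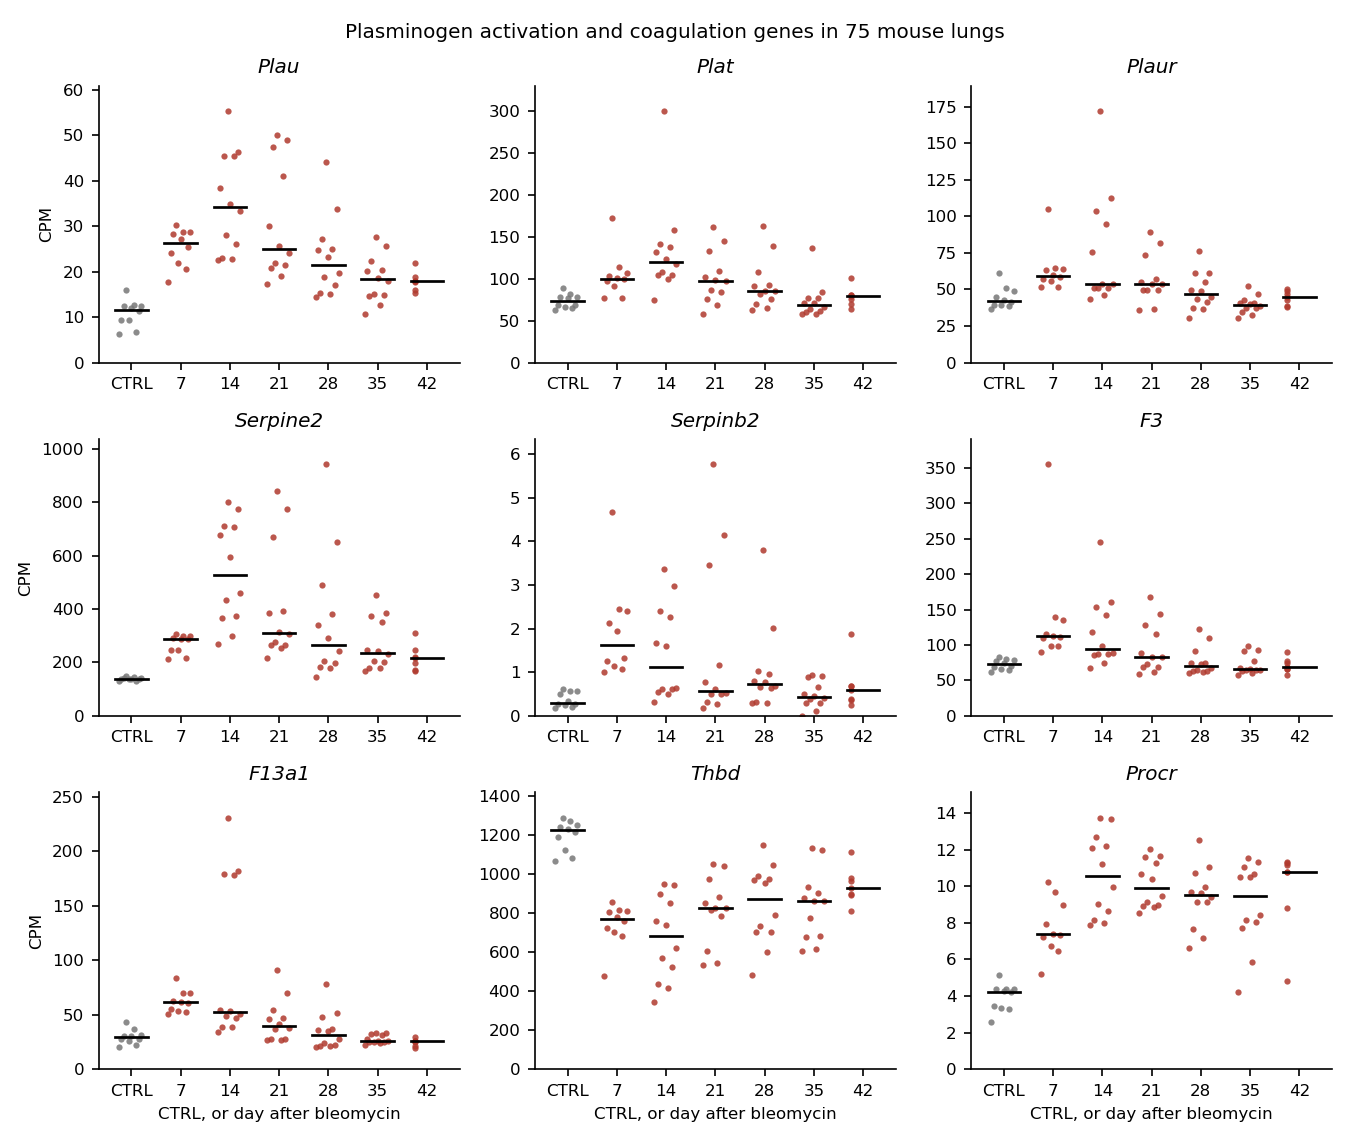
CPM (with TMM scaling, linear axes from 0) of each of the 9 genes in every mouse, by group. Points are mice and bars are group medians. Thbd lay lower in all 22 mice of days 7 and 14 than in any CTRL mouse, and on day 14 F13a1 split into 4 mice at 178 CPM or more and 8 mice at 53.9 CPM or less.

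Plau was higher on all 6 days. Its CPM had a lowest value, median and highest value of 6.40, 11.7 and 15.98 in CTRL mice, 17.8, 26.3 and 30.2 on day 7, and 22.5, 34.1 and 55.3 on day 14. Every mouse of days 7, 14 and 21 lay above every CTRL mouse. The fold change was 2.32 on day 7 (log2FC 1.21, SE 0.20, adjusted p = 5.91e-07) and 3.22 on day 14 (log2FC 1.69, SE 0.19, adjusted p = 1.10e-11) by edgeR's quasi-likelihood F test. Urokinase transcript then came down without reaching the control level, with values of 15.3, 18.01 and 22.002 CPM on day 42. The fold change that day was 1.65 (log2FC 0.72, SE 0.21, adjusted p = 0.00934), and 5 of 7 mice lay above all CTRL mice.

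Plat and Plaur passed the test on fewer days than Plau. Plat had a lowest value, median and highest value of 63.3, 73.2 and 89.1 CPM in CTRL mice, 76.9, 100 and 173 CPM on day 7, and 75.3, 121 and 300.2 CPM on day 14. On day 14, 11 of 12 mice lay above all CTRL mice, with a fold change of 1.81 (log2FC 0.86, SE 0.16, adjusted p = 7.23e-06). Plat was also called on days 7 (log2FC 0.50, SE 0.17, adjusted p = 0.0131) and 21 (log2FC 0.46, SE 0.16, adjusted p = 0.0133). The day 7 call was lost without BLEO-IPF day 7 replicate 5, its highest mouse, where the log2FC was 0.39 and the adjusted p 0.0519. From day 28 on Plat was not called, with log2FC of 0.34, 0.01 and 0.09 on days 28, 35 and 42.

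Plaur had a lowest value, median and highest value of 36.9, 41.9 and 60.98 CPM in CTRL mice, 51.9, 59.1 and 105 CPM on day 7, and 43.6, 53.8 and 172 CPM on day 14. The ranges overlapped with CTRL on both days, and only 4 of 10 and 5 of 12 mice lay above all CTRL mice. The receptor was called on these 2 days, with log2FC of 0.51 (SE 0.17, adjusted p = 0.0112) and 0.77 (SE 0.16, adjusted p = 4.57e-05). The median was lower on day 14 than on day 7 while the mean was higher, 75.7 ± 38.7 CPM (SD, n = 12) against 63.2 ± 15.4 CPM (SD, n = 10). Plaur was not called on days 21 to 42, where its log2FC lay between -0.16 and 0.36.

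Among the inhibitors, Serpine2 showed the larger counts and Serpinb2 the larger early fold change. Serpine2 was narrow in CTRL mice, with a lowest value, median and highest value of 131, 139 and 150 CPM, and reached 213, 289 and 307 CPM on day 7 and 268, 528 and 800 CPM on day 14. All mice of days 7, 14, 21, 35 and 42 and 11 of 12 mice of day 28 lay above all CTRL mice. Its log2FC was 0.95 on day 7 (SE 0.24, adjusted p = 0.000959) and 1.95 on day 14 (SE 0.24, adjusted p = 2.46e-10), a fold change of 3.85. On day 42 the values were 167, 217 and 310 CPM and the change was not called (log2FC 0.64, SE 0.26, adjusted p = 0.0632), although the 7 mice did not overlap with CTRL. In a fit of the CTRL and day 42 mice alone the same comparison passed the test (log2FC 0.65, adjusted p = 1.11e-05).

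Serpinb2 transcript was rare throughout, with 889 counts over all 75 mice. Its lowest value, median and highest value were 0.186, 0.304 and 0.626 CPM in CTRL mice and 1.02, 1.63 and 4.68 CPM on day 7, where all 10 mice lay above all CTRL mice. The fold change on day 7 was 5.07 (log2FC 2.34, SE 0.51, adjusted p = 0.000138), the largest of the 9 members on any day. Later groups spread widely, from 0.328 to 3.36 CPM on day 14 and from 0.182 to 5.77 CPM on day 21, where 7 and 5 of 12 mice lay above all CTRL mice. Serpinb2 was called on days 7 to 28 and not on day 35 (log2FC 0.39, SE 0.56) or day 42 (log2FC 0.87, SE 0.61). The day 28 call (log2FC 1.43, SE 0.52, adjusted p = 0.0218) was lost without BLEO-IPF day 28 replicate 10, the mouse with the skeletal muscle markers and the highest Serpinb2 of that day, where the log2FC was 1.03 and the adjusted p 0.103. Serpinb2 shares 291 exonic bases on the same strand with Serpinb10, which had 2208 counts over all mice, and how reads in shared bases were counted is not given in the sources used here. Serpinb10 itself fell on day 7 (log2FC -0.72, SE 0.29, adjusted p = 0.0381) and on day 14 (log2FC -1.40, SE 0.29, adjusted p = 2.16e-05), the opposite direction to Serpinb2.

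**Figure D2:**
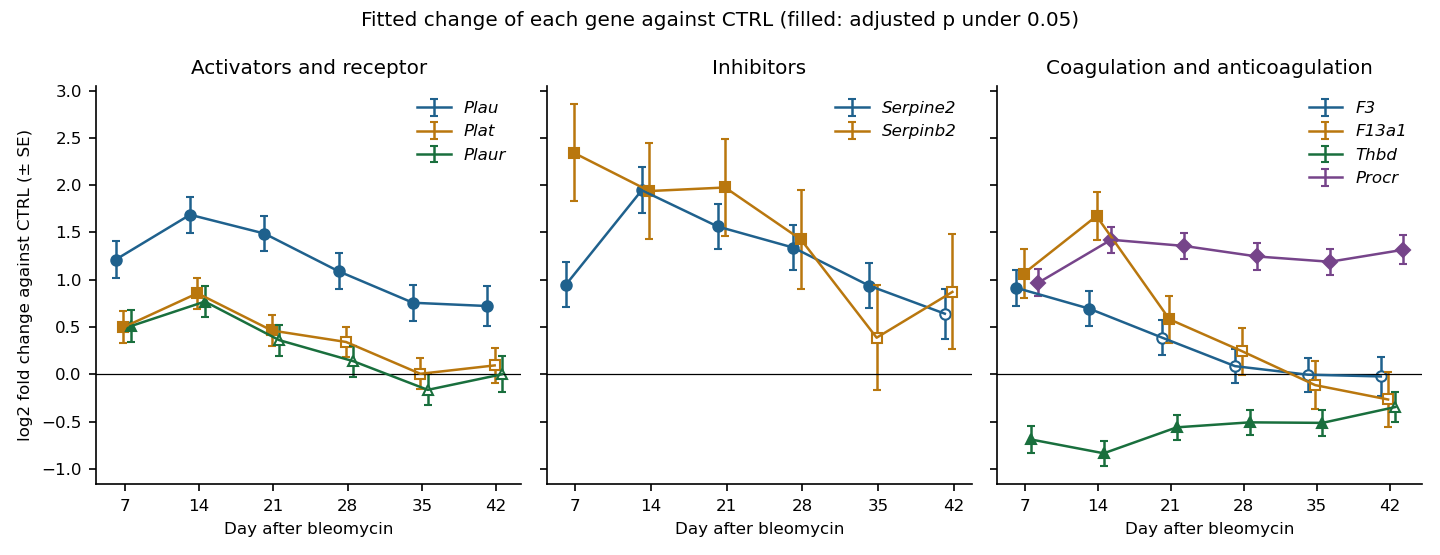
Fitted log2 fold change of each gene against CTRL (y axis) on the 6 days after bleomycin (x axis), with SE bars. Filled symbols passed an adjusted p of 0.05. Plau and Procr are filled on all 6 days, Thbd lies below 0 on all 6 days, and F3 and F13a1 lie near 0 on day 35 (-0.00 and -0.11).

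Tissue factor rose on days 7 and 14, and factor XIII A on days 7, 14 and 21. F3 had a lowest value, median and highest value of 62.6, 72.5 and 83.7 CPM in CTRL mice, 90.5, 112 and 355 CPM on day 7, and 68.1, 94.3 and 245 CPM on day 14. All 10 mice of day 7 and 10 of 12 mice of day 14 lay above all CTRL mice. The log2FC was 0.91 on day 7 (SE 0.19, adjusted p = 5.90e-05) and 0.69 on day 14 (SE 0.18, adjusted p = 0.000744). Without BLEO-IPF day 7 replicate 5, the mouse at 355 CPM, the day 7 log2FC was 0.64 (adjusted p = 0.00132). On day 21 F3 was not called (log2FC 0.39, SE 0.18, adjusted p = 0.0644), and on days 28, 35 and 42 its log2FC was 0.09, -0.00 and -0.02.

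F13a1, a transcript of macrophages and of megakaryocytes, had a lowest value, median and highest value of 20.7, 29.2 and 43.2 CPM in CTRL mice and 50.9, 61.6 and 84.0 CPM on day 7, where the ranges did not overlap. The log2FC on day 7 was 1.06 (SE 0.26, adjusted p = 0.000550). On day 14 the 12 mice fell into separate ranges, with replicates 1, 3, 4 and 8 at 182, 179, 178 and 231 CPM and the other 8 mice between 33.6 and 53.9 CPM. The mean of that day was 94.6 ± 73.8 CPM (SD, n = 12), with a log2FC of 1.67 (SE 0.25, adjusted p = 5.50e-08), whereas its median of 52.3 CPM lay below that of day 7. On day 21 the log2FC was 0.58 (SE 0.25, adjusted p = 0.0429), a call that 13 of 22 refits without 1 mouse did not keep. F13a1 was not called afterwards, at 19.03, 25.9 and 29.4 CPM on day 42 (log2FC -0.27, SE 0.29, adjusted p = 0.540).

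The members of the protein C pathway moved in opposite directions. Thbd, the most abundant member per length, had a lowest value, median and highest value of 1066, 1226 and 1291 CPM in CTRL mice, 477, 771 and 858 CPM on day 7, and 342, 682 and 949 CPM on day 14. No mouse of days 7, 14 or 21 reached the lowest CTRL mouse. Thbd fell by 0.69 on the log2 scale on day 7 (SE 0.14, adjusted p = 4.99e-05) and by 0.83 on day 14 (SE 0.13, adjusted p = 2.04e-07), to 0.561 of the CTRL level. On days 21, 28 and 35 the log2FC was -0.56, -0.51 and -0.51, with adjusted p of 0.000312, 0.00151 and 0.00206. On day 42, at 811, 931 and 1113 CPM, the difference was not called (log2FC -0.35, SE 0.16, adjusted p = 0.0936), and 6 of 7 mice still lay below all CTRL mice.

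Procr had a lowest value, median and highest value of 2.57, 4.24 and 5.17 CPM in CTRL mice, 5.18, 7.38 and 10.3 CPM on day 7, and 7.88, 10.6 and 13.8 CPM on day 14. All mice of days 7, 14, 21 and 28 lay above all CTRL mice. The log2FC was 0.97 on day 7 (SE 0.14, adjusted p = 9.53e-08) and 1.42 on day 14 (SE 0.14, adjusted p = 8.05e-14). On days 21, 28 and 35 the log2FC was 1.36, 1.25 and 1.19, and on day 42 it was 1.32 (SE 0.15, adjusted p = 9.31e-10). Its day 42 values were 4.80, 10.8 and 11.4 CPM, and 6 of 7 mice lay above all CTRL mice.

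The sum of 6 endothelial markers had a lower median on the days when Thbd was lower, but not every marker fell. Pecam1, Cdh5, Tek, Ramp2, Emcn and Cldn5 together summed to between 2896 and 3856 CPM in CTRL mice, to between 2078 and 2688 CPM on day 7 and to between 1601 and 2977 CPM on day 14. On days 7 and 14, 4 and 5 of these 6 genes fell and 0 rose, with log2FC of -0.67 and -0.87 for the angiopoietin receptor Tek. Of all genes tested, 21% and 29.9% fell on these days, and 24.8% and 32.4% rose. On day 42 the sum ranged from 2366 to 3534 CPM and 2 of the 6 genes fell (11% of all genes tested). Cldn5 was not called on any of the 6 days. Emcn was not called from day 21 on, with log2FC of -0.03, 0.05 and 0.23 on days 21, 28 and 35. Vwf, listed here with the coagulation genes, was higher on days 14 and 21 (log2FC 0.56 and 0.41). Procr, also a gene of endothelium, was higher on all 6 days. The part of the endothelial markers in the Thbd and Procr results was not tested.

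**Figure D3:**
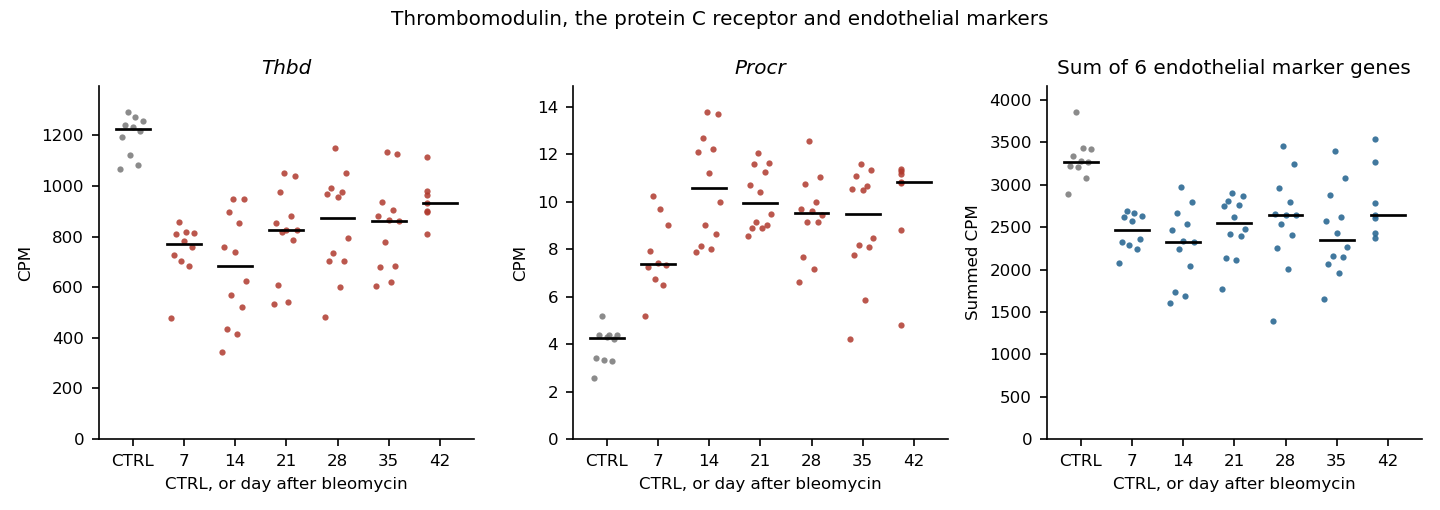
Thbd (left), Procr (middle) and the sum of 6 endothelial marker genes (right) in every mouse, in CPM on linear axes from 0, by group. Points are mice and bars are medians. Thbd and the endothelial sum lie lower on day 14 than in CTRL, and Procr lies higher in all 12 mice of that day.

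Counted by day, all 9 members were called on day 7 (8 higher, 1 lower) and on day 14 (8 higher, 1 lower), where 45.8% and 62.4% of all genes tested were called. On day 21, 7 members were called (6 higher, 1 lower) against 54.2% of all genes. On day 28, 5 were called (4 higher, 1 lower) against 43.3% of all genes, and on day 35, 4 (3 higher, 1 lower) against 29.9%. On day 42 Plau and Procr were called, 2 of 9, against 24.7% of all genes, so the members' share by then was near the background. The median log2FC of the 9 members was 0.95, 1.42, 0.58, 0.34, 0.01 and 0.09 on the 6 days in order, whereas the median over all genes tested lay between -0.00 and 0.02. Groups did not overlap with CTRL for 7 members on day 7 (6 higher and 1 lower, against 7.39% and 3.8% of all genes) and for 4 members on day 14 (3 higher and 1 lower, against 9.46% and 6.15%). For day 21 it was 4 members (3 higher and 1 lower, against 6.84% and 4.85%). At later times 1 member lay wholly above CTRL and 0 below: Procr on day 28 (all genes 2.1% higher and 1.34% lower), Serpine2 on day 35 (2.43% and 1.34%) and Serpine2 on day 42 (4.22% and 3.37%). Plau and Procr were called on all 6 days, as were 13.6% of all genes tested. The 6 comparisons share the same CTRL mice and are given side by side for that reason. The members were chosen with earlier results of these data known, so their shares beside those of all genes are descriptive only.

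Between the first and the second week, Serpine2 and Procr went on rising. Day 14 exceeded day 7 for Serpine2 (log2FC 1.00, SE 0.23, adjusted p = 0.00187), with 10 of 12 mice above all day 7 mice, and for Procr (log2FC 0.45, SE 0.13, adjusted p = 0.0108), with 6 of 12. These were 2 of 9 members, both higher, against 17% of all genes (9.48% higher and 7.55% lower). No member had ranges without overlap, against 0.358% of all genes higher and 0.0432% lower. The median log2FC over the members was 0.36, against 0.00 over all genes. F13a1 differed by 0.61 (SE 0.24, adjusted p = 0.0726) and Plau by 0.47 (SE 0.18, adjusted p = 0.0568), and neither passed the test. For Plau DESeq2 gave an adjusted p of 0.0441 and a fit of these groups alone 0.0379, so that this call depends on the fit. Serpinb2 and F3 had log2FC of -0.41 (SE 0.42) and -0.22 (SE 0.18) between these days and did not pass it either.

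From day 14 to day 42 most members moved toward the CTRL level. In all, 7 members were called, 6 lower and Thbd higher, against 34% of all genes (18.8% lower and 15.2% higher). F13a1 fell by 1.94 on the log2 scale (SE 0.30, adjusted p = 6.25e-07) and Serpine2 by 1.31 (SE 0.27, adjusted p = 0.000121). Plau, Plat, Plaur and F3 fell by 0.96, 0.76, 0.77 and 0.72, and Thbd rose by 0.49 (SE 0.15, adjusted p = 0.00733). All 7 mice of day 42 lay below all 12 mice of day 14 for Plau and F13a1, where 2.68% of all genes had such ranges, and 0 members lay wholly above (1.04% of all genes). Procr differed by -0.11 (SE 0.14, adjusted p = 0.596) and Serpinb2 by -1.07 (SE 0.53, adjusted p = 0.108), and neither passed the test.

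Ordered by fitted mean, day 14 was the highest group for Plau, Plat, Plaur, Serpine2, F13a1 and Procr, day 7 was the highest for Serpinb2 and F3, and CTRL was the highest for Thbd. For F3 the order of days 7 and 14 varied with single mice. Without day 7 replicate 5 the day 7 log2FC was 0.64, against 0.69 on day 14 with all its mice. Leaving out 1 mouse brought the day 14 log2FC as low as 0.55. The medians of F3 were 112 CPM on day 7 and 94.3 CPM on day 14. Neighbours in these orders are the closest groups by the way they were sorted, and the test of their means rarely separated them. Of the 6 steps between neighbouring groups for each gene, the test separated only Plau on day 42 from CTRL (log2FC 0.72, adjusted p = 0.00934) and Procr on day 7 from CTRL (log2FC 0.97, adjusted p = 9.53e-08). For the other 7 members no neighbouring pair passed the test. That test does not measure the spread of the mice. Serpine2 on day 42 and CTRL were such a pair (adjusted p = 0.0632), although their ranges did not overlap.

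On day 14 the SD, as a percentage of the mean, was larger than in CTRL for all 9 members. The SD of Serpine2 was 4.07% of the mean in CTRL, 35.8% on day 14 and 66.9% on day 28. For F13a1 it was 22.3% in CTRL, 78.0% on day 14 and 14.0% on day 42, and for F3 9.89%, 43.2% and 14.1%. On day 14 the highest values of several members fell in the same animals. Replicates 1, 3, 4 and 8 held the 4 highest values of F13a1, Plaur, Serpinb2 and F3, at 94.4 CPM or more of Plaur against 75.5 CPM or less in the other mice. Replicate 8 had the highest Plat (300.2 CPM), Plaur (172 CPM), F3 (245 CPM) and Procr (13.8 CPM) and the lowest Thbd (342 CPM) and Plau (22.5 CPM) of that day. The same mouse carried the neutrophil markers, whose part in these values was not tested.

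**Figure D4:**
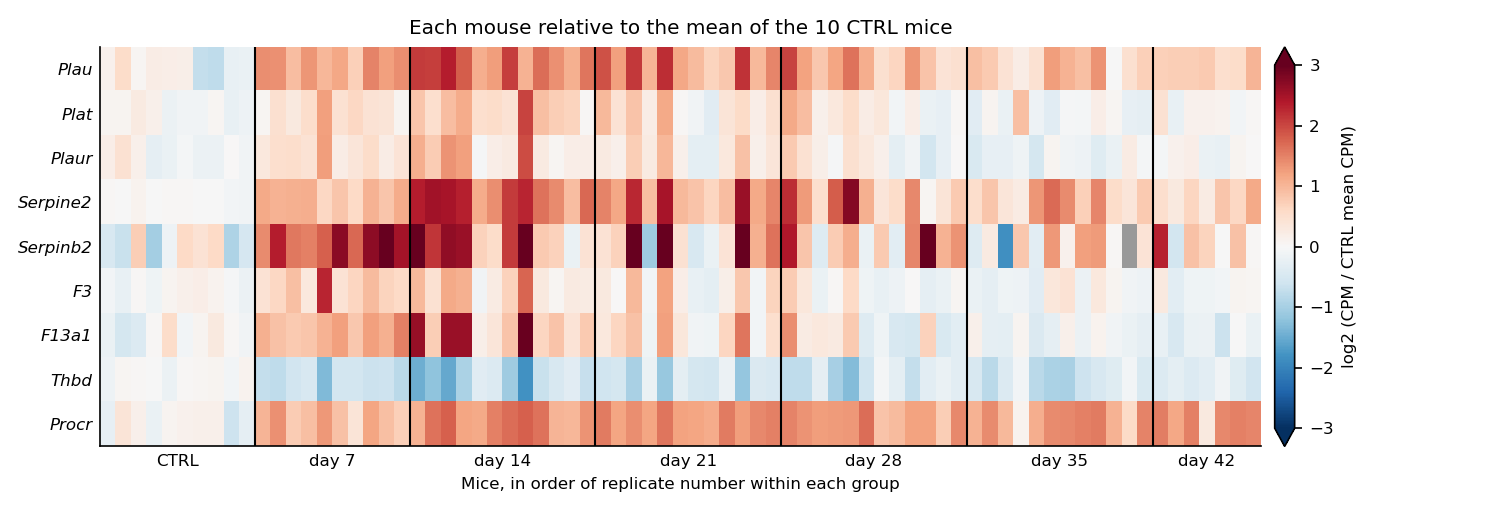
Each of the 75 mice (columns, by group and replicate number) for each of the 9 genes (rows), as the log2 ratio of its CPM to the mean of the 10 CTRL mice. The color scale ends at -3 and 3, and the gray cell is a day 35 mouse with 0 counts of Serpinb2. The day 14 columns 1, 3, 4 and 8 are darkest for F13a1, and the Procr row is raised through day 42.

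On day 21 replicates 3, 5 and 10 held the 3 highest values of Plau, Plaur, Serpine2, Serpinb2, F3 and F13a1, with Serpine2 at 671, 776 and 842 CPM against 391 CPM in the next mouse. Fibroblast markers (Col1a1, Col3a1, Lum, Dcn, Pdgfra and Pdgfrb) in these mice summed to 8073, 9552 and 10528 CPM, against 5794 CPM in the next mouse. AT2 markers summed to 8772, 11933 and 8591 CPM in them, the lowest of that day, with 11967 CPM in the next. On day 28 replicate 1 was highest for Plau, Plat, Plaur, F3 and F13a1 and replicate 5 for Serpine2. These animals were picked out after their values were seen, and no test was run on them. Macrophage markers, summed over Ccr2, Ly6c2, C1qa, C1qb, Csf1r, Cd68 and Adgre1, ranged from 305 to 376 CPM in CTRL and from 730 to 1857 CPM on day 14, when 6 of the 7 genes rose. In the 4 mice with the highest F13a1 that sum was 1226, 1857, 1344 and 1325 CPM, and in replicate 2, with F13a1 at 49.2 CPM, it was 1569 CPM. Platelet and megakaryocyte markers summed to 28.2 to 44.6 CPM on day 14 against 35.3 to 71.8 CPM in CTRL, with 4 of 5 genes tested lower and Gp1bb at 0 in 53 of 75 mice, while F13a1 was higher. Fibroblast markers rose as well on that day, 5 of 6 genes, from a median sum of 1693 CPM to 6297 CPM. The collagen genes Col3a1 and Col1a1 have the highest counts in that sum, and their log2FC was 2.49 and 2.90. For Lum, Pdgfrb and Pdgfra it was 1.34, 0.55 and 0.38, and Dcn was not called (-0.04). AT2 markers fell, 4 of 5 genes, from a median sum of 20156 CPM to 11112 CPM, with the lowest sum, 5460 CPM, in replicate 1. Red blood cell markers fell too, 5 of 5 genes, from 1730 CPM to 880 CPM. Beside these day 14 counts of marker genes, 32.4% of all genes tested rose and 29.9% fell. The part of these cell types in the members' changes was not tested.

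The rest of the pathway was read from a list of 38 genes in 5 roles, of which 27 were tested. The list was chosen with earlier results of these data known, so its shares beside those of all genes are descriptive only. Plg itself, F2 (prothrombin), F9, F11, F12, F13b, Fgb, Serpinc1 (antithrombin), Serpina5, Serpinf2 and Cpb2 had too few counts, at most 15 in any mouse. Of the 27, 16 rose and 3 fell on day 7, where 24.8% of all genes tested rose and 21% fell. Day 14 had 16 higher and 4 lower (all genes 32.4% and 29.9%), and day 21 had 17 higher and 3 lower (28.3% and 25.8%). Day 28 gave 14 higher and 1 lower (24.1% and 19.2%), as did day 35 (16.9% and 13.1%), and day 42 gave 10 higher and 1 lower (13.7% and 11%). The median log2FC of the 27 genes was 0.31 on day 7, 0.51 on day 14 and 0.22 on day 42.

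Beside the genes with an absolute log2FC of at least 1, the genes named here (Vtn, Anxa2, S100a10, Tfpi, Proc, Pros1 and F2r) were chosen after their values were seen. Vtn (vitronectin, an adhesive glycoprotein of plasma and matrix that binds the urokinase receptor) fell on all 6 days, with a log2FC of -0.98 on day 14. Of the genes that bind plasminogen or urokinase complexes at the cell surface, 4 of the 5 tested rose on day 14 (all genes 32.4%). Among them Mrc2, the urokinase receptor-associated collagen receptor, had a log2FC of 1.12 (adjusted p = 3.99e-12). Anxa2 and S100a10, which together form a plasminogen receptor, were at 0.53 and 0.67.

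Among the 8 coagulation genes tested, 5 rose and 2 fell on day 14 (all genes 32.4% and 29.9%). On day 42, 4 rose and 0 fell (all genes 13.7% and 11%). F7, the partner of tissue factor, ranged from 9.23 to 13.8 CPM in CTRL mice and from 31.3 to 69.2 CPM on day 14 (log2FC 1.95, adjusted p = 1.20e-10). F7 stayed called on day 42 (log2FC 1.56, adjusted p = 5.86e-06), when F3 had a log2FC of -0.02. F10, the factor that this pair activates, had a log2FC of 1.79 on day 14 (adjusted p = 4.42e-11) and of 0.80 on day 42 (adjusted p = 0.00952). The fibrinogen genes Fga and Fgg rose from near 0, with 19 and 49 counts in all CTRL mice together, and had log2FC of 2.69 (adjusted p = 5.00e-05) and 2.77 (adjusted p = 2.11e-06) on day 7. Fga was at 0 counts in 6 of 10 CTRL mice and at 10 counts in the highest of them. On day 7, 5 of 10 mice lay above all CTRL mice for Fga. For Fgg all 10 did, with a median of 2.04 CPM and a highest value of 11.3 CPM.

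Of the 7 anticoagulant genes tested, 5 rose and 1 fell on day 14 (all genes 32.4% and 29.9%). Tfpi2, a Kunitz-type inhibitor of plasmin and of factor VII with tissue factor, had a log2FC of 1.96 (adjusted p = 5.66e-12), while Tfpi, the main inhibitor of that complex, had one of 0.13 (adjusted p = 0.141) and was not called on any day. Serpina10, the inhibitor of factor X that works with protein Z, rose from 0.190 to 0.629 CPM in CTRL mice to between 1.43 and 2.73 CPM on day 14 (log2FC 2.65, adjusted p = 4.85e-11). Serpind1 (heparin cofactor II) had its largest log2FC on day 28, 1.01 (adjusted p = 0.000865). Pros1 (protein S, the cofactor of activated protein C) rose on day 14 (log2FC 0.51, adjusted p = 5.13e-08), whereas Proc (protein C) fell on days 7 and 14 (log2FC -0.71 and -0.65, adjusted p = 0.0477 and 0.0437). Of the 4 protease-activated receptors, F2r alone rose on day 14 (log2FC 0.42, adjusted p = 2.28e-05), when 32.4% of all genes rose.

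**Figure D5:**
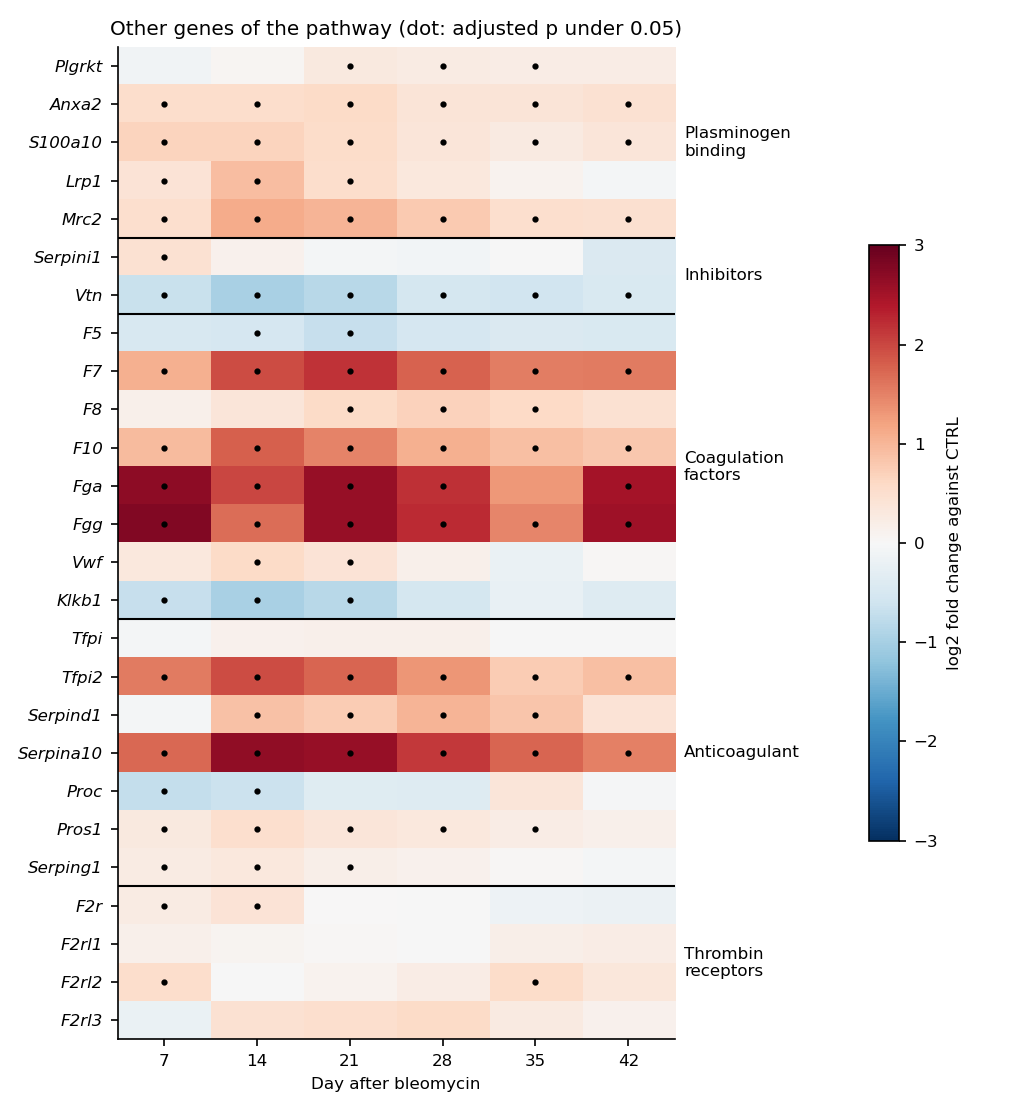
Fitted log2 fold change against CTRL (color) of other pathway genes (rows, grouped by role) on the 6 days (columns). Dots mark an adjusted p under 0.05. Among the genes raised with a dot on all 6 days are F7, F10, Fgg, Tfpi2 and Serpina10, and Vtn is lowered with a dot on all 6 days.

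For each member the 13239 other genes with a mean log2 CPM above 1 and a regular symbol were ranked by the root mean square difference of their 6 log2FC from those of the member. The closest genes were Ulbp1 and Lgals1 for Plau (0.07 and 0.10 on the log2 scale), Ajap1 for Plat (0.08), Metrn and Iigp1 for Plaur (0.08 and 0.08), and Fstl1 and Kdelr3 for Serpine2 (0.07 and 0.07). For F3 Prim1 was close (0.09), for Thbd they were Itpkb and She (0.03 and 0.04), and for Procr Mcoln2 and Arl11 (0.11 and 0.13). Serpinb2 and F13a1 had larger differences from their nearest genes, with Gadd45g and Chrna7 at 0.24 and 0.25 for the former, and Folr2 and Medag at 0.26 and 0.26 for the latter. Likeness here is over 6 values that share the CTRL mice, and it describes the course only.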

How the data were processed

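PolyA RNA of the inferior lung lobe was sequenced from directional (stranded) libraries, 1 per mouse. The deposited values are raw counts per gene, which the authors made from reads aligned to GRCm38 with STAR 2.7.0f, per the submitters' processing notes. The counting program and its use of strand are not given in the sources used here. Total counts per mouse (9240291 to 14665247, median 10677163) limit the precision of Serpinb2, Fga, Fgg and Serpina10 most.

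Genes were filtered with filterByExpr of edgeR (16221 of 55536 kept), scaled by TMM, and fitted with 7 group means over all 75 mice. Contrasts were tested with edgeR's quasi-likelihood F test, and p-values were adjusted over all genes tested by Benjamini-Hochberg, with a threshold of 0.05. SE is the absolute log2FC divided by the square root of F. Levels are CPM with TMM scaling, and levels per kilobase use the exon length in Ensembl. The scripts were tested on simulated data. Named genes were the 9 members, pathway genes with an adjusted p under 0.05 and an absolute log2FC of at least 1 on any day, and the nearest 2 genes of each member. Some genes that this rule names are not reported here, although counts over the pathway list include them. The members, the pathway list and the marker lists were chosen with earlier results of these data known. Alternatives were DESeq2, library size only, upper quartile factors, no filter, only the groups compared, a replicate block, and leaving out each mouse. Among 375 within-group pairs of libraries the lowest chi-square per degree of freedom was 3.88, and none was counted as a duplicate. Versions were R 4.3.3, edgeR 4.0.16, limma 3.58.1, DESeq2 1.42.0, Python 3.11.15, numpy 2.4.6, scipy 1.17.1, pandas 2.3.3 and matplotlib 3.10.9.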

Additional observations from a re-analysis of the deposited data

Results flagged for a closer look

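In groups of 7 or 10 mice, single animals stood far from the rest by Dixon's criterion in 7 of 27 combinations of gene and group. The combinations share the same mice, so these 7 are not independent and are not set against a chance rate. BLEO-IPF day 7 replicate 5 accounted for 4 of them. It had the highest Plat (173 CPM, next 114 CPM), the highest Plaur (105 CPM, next 64.6 CPM) and the highest F3 (355 CPM, next 140 CPM) of its day, and the lowest Thbd (477 CPM, next 684 CPM). Serpinb2 was highest in day 7 replicate 9 (4.68 CPM, next 2.45 CPM) and in day 42 replicate 1 (1.88 CPM, next 0.694 CPM). Procr was lowest in day 42 replicate 4 (4.80 CPM, next 8.80 CPM).

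The change against CTRL differed between days by the test of the difference itself. Between days 7 and 14 the log2 difference was 1.00 for Serpine2 and 0.45 for Procr. From day 14 to day 42 it was -0.96 for Plau, -0.76 for Plat, -0.77 for Plaur, -1.31 for Serpine2, -0.72 for F3, -1.94 for F13a1 and 0.49 for Thbd.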

How the results depend on the processing

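DESeq2, library size only, upper quartile factors and no filter each left all 14 counts of called members and pathway genes within 1.5 times the reported count. With only the groups compared, 4 members rather than 2 were called on day 42, as Serpine2 (log2FC 0.65) and Thbd (log2FC -0.34) passed. Plat on day 28 (adjusted p = 0.0484), Plaur on day 21 (0.0211) and F3 on day 21 (0.0302) also passed in that fit, as did Plau from day 7 to day 14 (0.0379), which DESeq2 called too (0.0441). F13a1 on day 21 did not pass without the filter (adjusted p = 0.0763), and over 22 refits without 1 mouse its log2FC ranged from 0.43 to 0.65 and its adjusted p from 0.0285 to 0.139. Signs turned only for values near 0 that were not called. Plaur on day 42 was -0.0013 with upper quartile factors and -0.025 with the replicate block, and -0.034 to 0.057 without 1 mouse. F3 on day 35 was 0.011 with library size only, 0.0012 with upper quartile factors, 0.0052 with only the groups compared and 0.049 with the replicate block, and -0.057 to 0.022 without 1 mouse. Without 1 mouse Plat on day 35 ranged from -0.11 to 0.037 and F3 on day 42 from -0.094 to 0.011. Over all numbers, replicate numbers did not pair the mice (mean correlation of deviations 0.0058 for the same number and 0.0003 for others, 8 of 75 mice closest to their own number), except that all 6 pairs among the 4 mice numbered 11 correlated, with r from 0.163 to 0.352. The replicate block added calls for Plau from day 7 to day 14 (log2FC 0.51), Plat on day 28 (0.38) and Plaur on day 21 (0.39) and removed none among the members. With only the groups compared, Serpinb2 passed the filter in the comparisons of day 7 with CTRL, day 14 with day 7 and day 42 with day 14 alone, and has no value in the others. The 13 refits that lost F13a1 on day 21 left out CTRL replicate 1, 2, 3, 4, 6, 7 or 10, or day 21 replicate 2, 3, 5, 9, 10 or 12. Calls not made in the report appeared for Plat on day 28 without day 28 replicate 11, for Plaur on day 21 without CTRL replicate 1 or 2 or day 21 replicate 7 or 8, and for F3 on day 21 without day 21 replicate 7, 8 or 11. The causes were not tested. Depth limits Serpinb2 in CTRL, with 2 to 6 counts per mouse.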
